A study of Dorcoceras hygrometricum with 3 samples.

Results

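Leucine-rich repeat receptor kinases are plant proteins that span the cell membrane, with a repeat domain outside the cell that binds a ligand or a partner and a kinase domain inside that passes the signal on. In Arabidopsis, BRI1 binds brassinosteroids, the steroid hormones of growth. FLS2 binds a fragment of bacterial flagellin and EFR a fragment of a bacterial elongation factor, and both start immune responses. BAK1 is the co-receptor that joins each of them once the ligand is bound. DNA methylation at a plant gene can lie in its body or its flanks, and flanking methylation is often found where transposons sit.

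The genes described here were those whose best KEGG match was BRI1, its associated kinase BAK1, or a receptor-like kinase of the FLS2 or EFR kind. They numbered 79 of the 5575 genes with a differentially methylated region in either of the 2 deposited tables. The data are whole-genome bisulfite sequencing of leaf DNA from the resurrection plant Boea hygrometrica, which tolerates the drying of its leaves. Potted plants were sampled hydrated, at 70% relative water content (RWC) and at 10% RWC, with no other treatment named, and each state was 1 library. The number of plants or leaves behind a library is not stated in the sources used here. The genes' values are therefore differences between single libraries, with no replicate check and no test, and differences between plants or library preparations cannot be told apart from those of water content. The tables list only regions that had already been selected for a difference, so every gene in them differs between its 2 libraries by construction. The level of a region is its mean methylation as deposited, a fraction from 0 (no methylated call) to 1 (all calls methylated). Read counts are not given with the levels, so the depth behind a level is unknown. Sequence context and strand are not in the tables.

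The 79 genes comprised 26 described as BRI1, 26 as FLS2, 16 as BAK1 and 11 as EFR. The description is that of the closest KEGG entry and not an assignment of orthology. The bit score of the best match, a measure of its similarity, ranged from 47.8 to 861 with a median of 204. It was 400 or more for 14 genes and below 100 for 8. The highest score belonged to the BRI1-described gene Bhs1931_016V1.1. The 26 BRI1-described genes shared 7 best matches, and Arabidopsis BRI1 itself was the best match of 2 of them, Bhs3043_002V1.1 and Bhs685_046V1.1. All 11 EFR-described genes had the same best match, and 8 of them had FLS2 as a further match. The terms of the annotation differed with the description: 22 of the 26 BRI1 genes and 15 of the 16 BAK1 genes carried a Gene Ontology function that names kinase activity, against 5 of the 26 FLS2 genes and 4 of the 11 EFR genes. Among the FLS2 genes 11 had no function term and 5 had a gene model shorter than 1000 bp. In all, 33 of the 79 genes carried no kinase term, and for these the name of a receptor kinase rests largely on the match. Of these, 6 carried the broader term of transferase activity.

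At 70% RWC the table held 50 of these genes, and most had a higher level than in the hydrated library. The level was higher at 30 genes and lower at 20, a share of 60.0% higher (exact 95% binomial interval 45.2 to 73.6, counting only), where 70.6% of all 3177 listed genes were higher. The median difference was 0.14, and 0.17 over all listed genes. At 10% RWC the table held 58 of the genes and the directions were nearly even. The level was higher at 31 and lower at 27, a share of 53.4% (39.9 to 66.7), where 55.8% of all 3660 listed genes were higher. The median difference was 0.10 in both sets. Both intervals contain the share over all listed genes, so read against that background neither share is a result about the receptor kinase genes.

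Differences of at least 0.3 were a minority at these genes. At 70% RWC 28 of the 50 genes (56.0%) differed by at least 0.2, where 57.6% of all listed genes did, and 7 by at least 0.3, where 25.1% did. At 10% RWC 26 of the 58 (44.8%) differed by at least 0.2, where 52.4% of all did, and 9 (15.5%) by at least 0.3, where 23.0% did. Among the genes with a higher level at 70% RWC the median was 0.12 in the hydrated library and 0.335 in the dehydrated one (median difference 0.205), and among those with a lower level it was 0.28 and 0.115. At 10% RWC the medians of the higher genes were 0.11 and 0.28, and those of the lower genes 0.36 and 0.15. Direction went with the hydrated level, as it did for all listed genes, and a region near 0 can be listed for a higher level only. The hydrated level is itself a term of each difference, and regions were selected for a difference, so part of this relation is built in. Of the members whose hydrated level was above 0.3, none was higher at 70% RWC and 10 were lower, where 21.0% of all listed genes with such a level were higher. At 10% RWC 1 was higher and 14 lower, where 7.79% of all were higher. At hydrated levels of 0.2 or less, 25 members were higher and 8 lower at 70% RWC (88.3% of all listed genes higher), and 28 were higher and 8 lower at 10% RWC (86.5%).

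**Figure D1:**
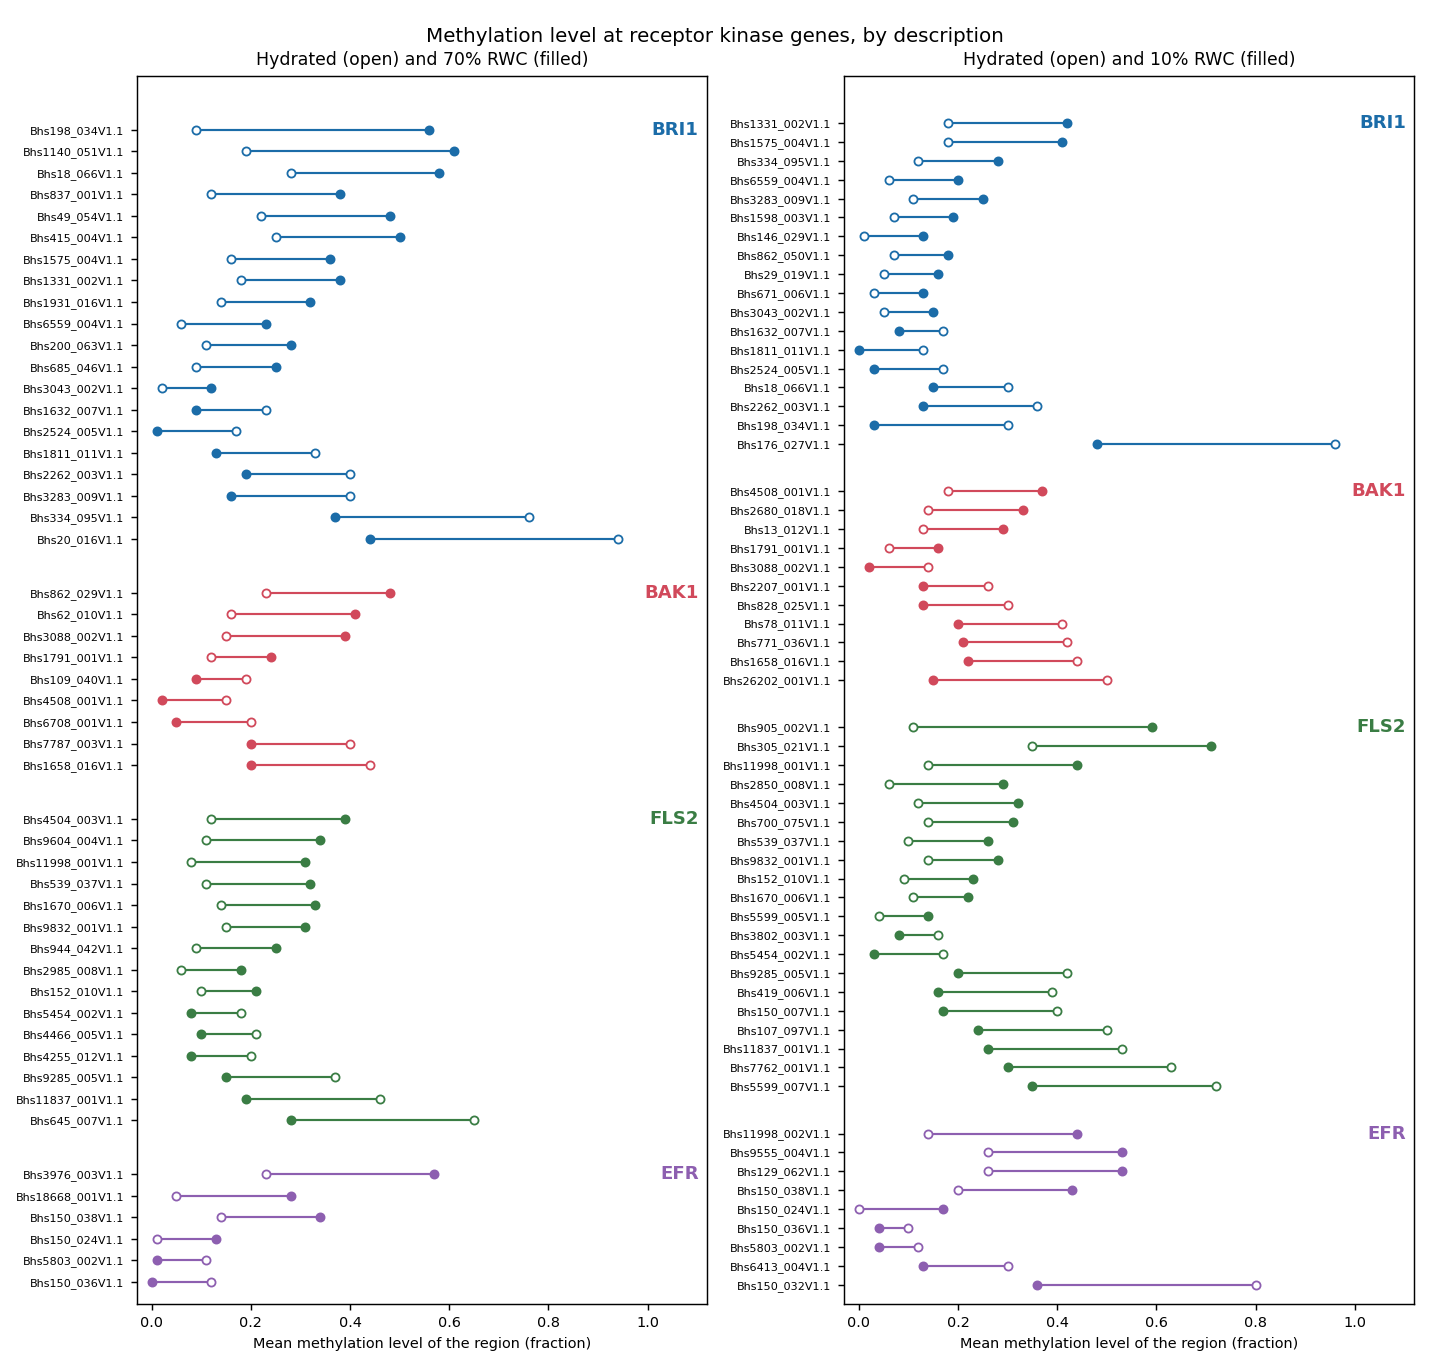
Methylation level of the listed region of each receptor kinase gene (x axis, fraction from 0 to 1; y axis, genes grouped by description) in the hydrated library (open points) and in the dehydrated library (filled points), for the 70% RWC table (left, 50 genes) and the 10% RWC table (right, 58 genes). Filled points lie right of open ones for 30 genes on the left and 31 on the right, and every description holds genes of both directions.

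The genes described as BRI1, the hormone receptor, had a higher level in 13 of 20 cases at 70% RWC, where 70.6% of all listed genes had one, and in 11 of 18 at 10% RWC, where 55.8% had. The largest upward difference at 70% RWC was in the body of Bhs198_034V1.1 (scaffold198, 249127 to 249383), at 0.09 in the hydrated library and 0.56 at 70% RWC. Downstream of Bhs1140_051V1.1 (scaffold1140, 410000 to 410262) the levels were 0.19 and 0.61. In the body of Bhs18_066V1.1 they were 0.28 and 0.58. That stretch was also listed for its neighbour, a desaturase gene of fatty acid synthesis. These 3 genes had the widest upward differences of the BRI1 group in that table. Smaller ones were listed downstream of Bhs49_054V1.1 (0.22 and 0.48) and Bhs200_063V1.1 (0.11 and 0.28) and in the body of Bhs415_004V1.1 (0.25 and 0.50).

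The largest differences of the other direction at BRI1-described genes started from high levels. In the body of Bhs20_016V1.1 (scaffold20, 119194 to 119403) the level was 0.94 in the hydrated library and 0.44 at 70% RWC, the largest difference among all 50 genes. Upstream of Bhs334_095V1.1 (scaffold334, 602365 to 602928) it was 0.76 and 0.37. Downstream of Bhs176_027V1.1 (scaffold176, 205337 to 205556) it was 0.96 in the hydrated library and 0.48 at 10% RWC. Each of these regions kept a level above 0.3 in the dehydrated library.

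The directions at BRI1-described genes were also counted by where the region lay. In gene bodies 9 of 11 were higher in each table, where 71.0% of all body regions at 70% RWC and 61.5% at 10% RWC were higher. The 2 sets have 6 genes in common and share the hydrated library. Upstream, 4 of 5 were lower at 70% RWC and 3 of 3 were lower at 10% RWC, where 71.3% and 50.1% of all upstream regions were higher. With so few genes this is a description of these regions and was not tested. The upstream regions with lower levels at 70% RWC belonged to Bhs334_095V1.1, Bhs3283_009V1.1, Bhs2262_003V1.1 and Bhs1811_011V1.1. Those at 10% RWC belonged to Bhs198_034V1.1, Bhs2262_003V1.1 and Bhs1811_011V1.1. The 1 upstream region with a higher level at 70% RWC was that of Bhs837_001V1.1, at 0.12 and 0.38. Body differences at 10% RWC were small, and the highest were those of Bhs1331_002V1.1 (0.18 and 0.42) and Bhs1575_004V1.1 (0.18 and 0.41). Bodies listed at 10% RWC only were those of Bhs1598_003V1.1 (0.07 and 0.19), Bhs146_029V1.1 (0.01 and 0.13), Bhs862_050V1.1 (0.07 and 0.18) and Bhs29_019V1.1 (0.05 and 0.16), all weakly methylated in both libraries, and the region of Bhs671_006V1.1, which crosses its downstream edge, was alike (0.03 and 0.13).

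The 2 genes with Arabidopsis BRI1 as best match had low levels throughout. Bhs685_046V1.1 had 0.09 in the hydrated library and 0.25 at 70% RWC in its body, in a region also listed for a neighbouring gibberellin receptor gene. Bhs3043_002V1.1 had 0.02 and 0.12 in the 70% RWC table and 0.05 and 0.15 in the 10% RWC table. The best-matching gene, Bhs1931_016V1.1, was listed at 70% RWC only, with 0.14 and 0.32 in its body (scaffold1931, 81843 to 82202).

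Genes described as BAK1, the co-receptor, were of both directions in both tables. At 70% RWC 4 were higher and 5 lower (exact 95% interval of the higher share 13.7% to 78.8%), beside 70.6% for all listed genes. At 10% RWC 4 were higher and 7 lower (10.9% to 69.2%), where 55.8% of all were higher. The largest difference was in the body of Bhs26202_001V1.1 (scaffold26202, 3111 to 3386), at 0.50 in the hydrated library and 0.15 at 10% RWC. Bodies of Bhs1658_016V1.1 (0.44 and 0.22), Bhs771_036V1.1 (0.42 and 0.21) and the upstream region of Bhs78_011V1.1 (0.41 and 0.20) followed at 10% RWC. The stretch upstream of Bhs78_011V1.1 was also listed for Bhs78_012V1.1, described as somatic embryogenesis receptor kinase 4, a kinase of the same small family as BAK1. The higher levels at 10% RWC were all in gene bodies, from 0.06 and 0.16 at Bhs1791_001V1.1 to 0.18 and 0.37 at Bhs4508_001V1.1, with Bhs2680_018V1.1 (0.14 and 0.33) and Bhs13_012V1.1 (0.13 and 0.29) between them. The remaining lower levels were in the bodies of Bhs828_025V1.1 (0.30 and 0.13) and Bhs2207_001V1.1 (0.26 and 0.13) and upstream of Bhs3088_002V1.1 (0.14 and 0.02).

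At 70% RWC the higher levels of the BAK1 group were upstream of Bhs862_029V1.1 (0.23 and 0.48) and Bhs3088_002V1.1 (0.15 and 0.39), and in the bodies of Bhs62_010V1.1 (0.16 and 0.41) and Bhs1791_001V1.1 (0.12 and 0.24). The description of Bhs62_010V1.1 is weak, with a bit score of 81.6, and it is the 1 BAK1 gene without a kinase term. The region of Bhs862_029V1.1 was also listed for a gene described as LATE ELONGATED HYPOCOTYL, a transcription factor of the circadian clock. The gene with the highest bit score in this group (413), Bhs7787_003V1.1, had 0.40 in the hydrated library and 0.20 at 70% RWC upstream (scaffold7787, 23074 to 23646). The same stretch was listed as downstream of Bhs7787_002V1.1, described as brassinosteroid insensitive 2, the kinase that represses brassinosteroid signalling. A co-receptor-like gene and a gene of the hormone's signalling chain thus shared 1 region of lower level, and it counts as 1 measurement. The other lower levels at 70% RWC were in the bodies of Bhs1658_016V1.1 (0.44 and 0.20), Bhs6708_001V1.1 (0.20 and 0.05), Bhs4508_001V1.1 (0.15 and 0.02) and Bhs109_040V1.1 (0.19 and 0.09).

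Genes described as FLS2, the flagellin receptor, differed in both directions. The level was higher for 9 of 15 at 70% RWC, where 70.6% of all listed genes were higher, and for 11 of 20 at 10% RWC, where 55.8% were. A difference of at least 0.3 was listed for 1 FLS2 gene at 70% RWC (25.1% of all listed genes) and for 5 at 10% RWC (23.0% of all). Downstream of Bhs905_002V1.1 (scaffold905, 32426 to 32654), the FLS2 gene with the highest bit score (547), the level was 0.11 in the hydrated library and 0.59 at 10% RWC. Downstream of Bhs305_021V1.1 it was 0.35 and 0.71, the 1 member with a hydrated level above 0.3 and a higher level at 10% RWC. Lower levels at 10% RWC were listed downstream of Bhs5599_007V1.1 (0.72 and 0.35) and in the body of Bhs7762_001V1.1 (0.63 and 0.30). Near Bhs5599_007V1.1 lies a second FLS2-described gene, Bhs5599_005V1.1, 4419 bp away, and its downstream region had 0.04 and 0.14. At 70% RWC the 1 difference of that size was downstream of Bhs645_007V1.1, at 0.65 and 0.28. Other FLS2-described genes listed at 10% RWC only were lower downstream of Bhs419_006V1.1 (0.39 and 0.16) and Bhs107_097V1.1 (0.50 and 0.24) and in the body of Bhs3802_003V1.1 (0.16 and 0.08), and higher in the body of Bhs700_075V1.1 (0.14 and 0.31). Those listed at 70% RWC only were higher downstream of Bhs944_042V1.1 (0.09 and 0.25) and lower in the body of Bhs4466_005V1.1 (0.21 and 0.10).

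Upstream regions of FLS2-described genes were mostly higher. At 70% RWC 5 of 6 were higher and at 10% RWC 3 of 3, where 71.3% and 50.1% of all upstream regions were. At 70% RWC they were those of Bhs4504_003V1.1 (0.12 and 0.39), Bhs9604_004V1.1 (0.11 and 0.34), Bhs11998_001V1.1 (0.08 and 0.31), Bhs539_037V1.1 (0.11 and 0.32) and Bhs2985_008V1.1 (0.06 and 0.18), and the lower one was that of Bhs4255_012V1.1 (0.20 and 0.08). At 10% RWC they were those of Bhs11998_001V1.1 (0.14 and 0.44), Bhs2850_008V1.1 (0.06 and 0.29) and Bhs4504_003V1.1 (0.12 and 0.32). Of these genes, Bhs9604_004V1.1, Bhs11998_001V1.1, Bhs2985_008V1.1 and Bhs2850_008V1.1 have gene models shorter than 1000 bp. The descriptions of Bhs2850_008V1.1, Bhs9604_004V1.1 and Bhs539_037V1.1 are weak, with bit scores of 47.8, 50.4 and 90.5. The exact 95% intervals of the higher FLS2 shares, 35.9% to 99.6% and 29.2% to 100%, contain those of all upstream regions. The hydrated level, with which direction went over all listed genes, was 0.06 to 0.12 at the higher FLS2 regions at 70% RWC. It was 0.33 to 0.76 at the lower BRI1 ones. At 10% RWC the values were 0.06 to 0.14 and 0.13 to 0.36. The opposite tendency of the BRI1 and FLS2 upstream regions was not tested.

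Genes described as EFR, the receptor of bacterial elongation factor, had a higher level in 4 of 6 cases at 70% RWC and in 5 of 9 at 10% RWC, near the 70.6% and 55.8% of all listed genes. In the body of Bhs3976_003V1.1 (scaffold3976, 51981 to 52416) the level was 0.23 in the hydrated library and 0.57 at 70% RWC, and downstream of Bhs18668_001V1.1 it was 0.05 and 0.28. All 4 upstream regions at 10% RWC were higher (50.1% of all upstream regions were), with 0.14 and 0.44 at Bhs11998_002V1.1, 0.26 and 0.53 at Bhs9555_004V1.1, 0.20 and 0.43 at Bhs150_038V1.1, and 0 and 0.17 at Bhs150_024V1.1. In gene bodies at 10% RWC, where 61.5% of all body regions were higher, 4 of 5 were lower, and the 1 higher was Bhs129_062V1.1 (0.26 and 0.53). Of the lower ones, Bhs6413_004V1.1 had 0.30 and 0.13. The region upstream of Bhs11998_002V1.1 (scaffold11998, 2035 to 2309) lies between this gene and the FLS2-described Bhs11998_001V1.1, 2704 bp apart, and was listed as upstream of both, so it is 1 measurement and the 58 genes at 10% RWC have 57 distinct regions. At 70% RWC Bhs11998_001V1.1 was listed for another upstream stretch, 2 bp from the gene.

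EFR-described genes were found together on 1 scaffold. Scaffold150 carried 4 of the 11, Bhs150_024V1.1, Bhs150_032V1.1, Bhs150_036V1.1 and Bhs150_038V1.1, within 76.4 kb (214430 to 290862), and further off the FLS2-described Bhs150_007V1.1. Bhs150_036V1.1 lies 14942 bp from Bhs150_032V1.1 and 9927 bp from Bhs150_038V1.1. These neighbours did not share a direction. Upstream of Bhs150_024V1.1 the level was 0.01 in the hydrated library and 0.13 at 70% RWC, and 0 and 0.17 in the 10% RWC table. In the body of Bhs150_032V1.1 (248636 to 248944) it was 0.80 in the hydrated library and 0.36 at 10% RWC. The body of Bhs150_036V1.1 had low levels that were lower still after drying, 0.12 and 0 at 70% RWC and 0.10 and 0.04 in another stretch at 10% RWC. At Bhs150_038V1.1 the body region of the 70% RWC table (290534 to 290771; 0.14 and 0.34) and the region of the 10% RWC table (290777 to 291022; 0.20 and 0.43) are 5 bp apart, and the second crosses the end of the gene that the tables treat as upstream. The FLS2-described gene Bhs150_007V1.1 had 0.40 in the hydrated library and 0.17 at 10% RWC in its body. Over the 4 EFR-described genes the hydrated level thus ran from 0 to 0.80. The highest level is that of Bhs150_032V1.1, whose bit score is 86.3, so its description is weak. The other EFR-described genes of the scaffold have bit scores of 637 to 648 and hydrated levels of 0 to 0.20.

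**Figure D2:**
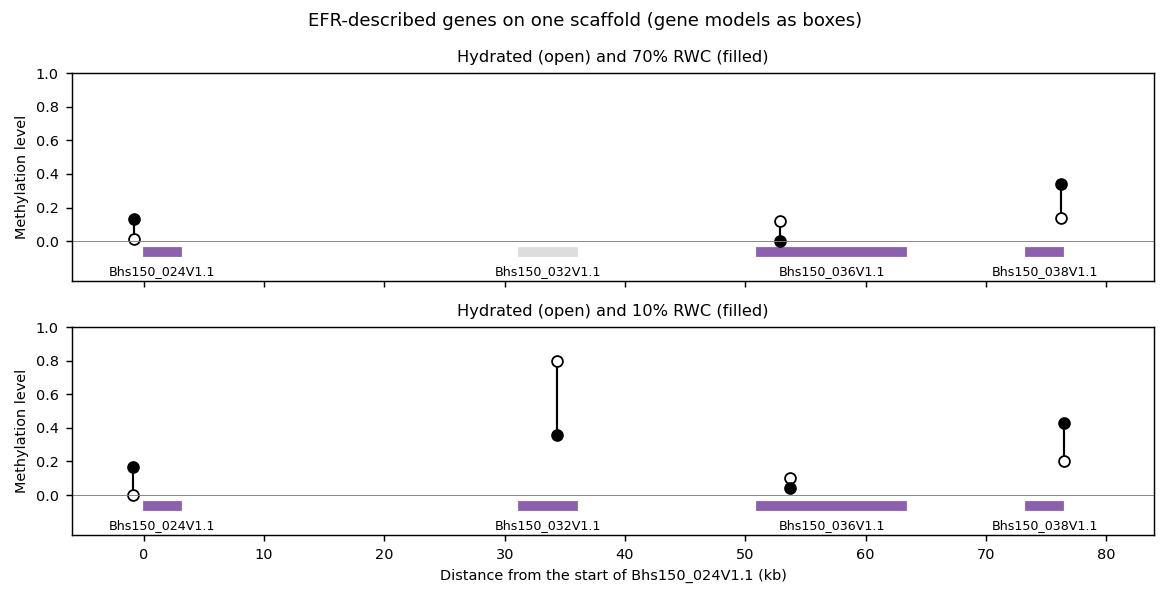
Methylation level (y axis, fraction) of the regions at the 4 EFR-described genes of 1 scaffold against distance from the start of Bhs150_024V1.1 (x axis, kb), in the hydrated library (open points) and the dehydrated library (filled points), with gene models as boxes (grey where the gene is not in that table). Levels are higher after drying at both outer genes and lower at Bhs150_036V1.1 in both tables. The widest difference, 0.80 and 0.36, is at Bhs150_032V1.1 at 10% RWC, a gene whose match is weak (bit score 86.3).

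Of the 79 genes, 29 (36.7%) were in both tables, 21 in the 70% RWC table only and 29 in the 10% RWC table only, where 1262 of all 5575 genes (22.6%) were in both, 1915 in the first only and 2398 in the second only. Both tables use the same hydrated library, so values of a gene in the 2 tables are not independent and are given side by side without a test. For 18 of the 29 genes the regions of the 2 tables overlapped, and 2 of these had identical boundaries. For the other 11 the regions were different stretches. This split, and the directions within it, are not given here for all genes in both tables. Neither is therefore read as a trait of the receptor kinase genes.

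The 2 identical regions give 1 stretch at 3 water contents, both at BRI1-described genes. In the body of Bhs1331_002V1.1 (scaffold1331, 162421 to 162709) the level was 0.18 in the hydrated library, 0.38 at 70% RWC and 0.42 at 10% RWC. Downstream of Bhs2524_005V1.1 (scaffold2524, 25203 to 25483), in a region also listed for a neighbouring gene, it was 0.17, 0.01 and 0.03. The first thus had a higher level in both dehydrated leaves and the second nearly no methylation in either. The hydrated level of each is the same in the 2 tables by construction, since library and boundaries are the same.

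Among the overlapping regions with higher levels, that of Bhs4504_003V1.1, described as FLS2, was listed at 0.12 and 0.39 in the 70% RWC table and at 0.12 and 0.32 in the 10% RWC table. The body of Bhs1575_004V1.1, described as BRI1, held the longest region of the group (1207 bp at 70% RWC), with 0.16 and 0.36, and 0.18 and 0.41 at 10% RWC. Bhs1670_006V1.1, described as FLS2, had 0.14 and 0.33, and 0.11 and 0.22. The FLS2-described Bhs539_037V1.1 had 0.11 and 0.32, and 0.10 and 0.26. Its region crosses the edge of the gene and was called upstream in one table and body in the other. Bhs9832_001V1.1 (FLS2) had 0.15 and 0.31, and 0.14 and 0.28 downstream. Bhs152_010V1.1 (FLS2) had 0.10 and 0.21, and 0.09 and 0.23 in its body. The hydrated levels of these regions were at most 0.18.

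Among the overlapping regions with lower levels, the body of the BAK1-described Bhs1658_016V1.1 (scaffold1658, 117324 to 117931 at 70% RWC) had 0.44 and 0.20, and 0.44 and 0.22 at 10% RWC. Downstream of Bhs11837_001V1.1 (FLS2) the levels were 0.46 and 0.19, and 0.53 and 0.26. That gene has a bit score of 49.3 and a model of 678 bp, so its description is weak. In the body of Bhs9285_005V1.1 (FLS2) they were 0.37 and 0.15, and 0.42 and 0.20. Upstream of Bhs2262_003V1.1 (BRI1) they were 0.40 and 0.19, and 0.36 and 0.13. Bodies of Bhs1632_007V1.1 (BRI1), Bhs5454_002V1.1 (FLS2) and Bhs5803_002V1.1 (EFR) had hydrated levels from 0.11 to 0.23 and dehydrated levels from 0.01 to 0.09. The overlap at Bhs5454_002V1.1 was 55 bp.

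The hydrated level of overlapping regions differed between the tables by at most 0.07 at 17 of the 18 genes. The exception was the upstream region of Bhs1811_011V1.1, described as BRI1. In the 70% RWC table it spanned 339 bp (115930 to 116268), with 0.33 in the hydrated library and 0.13 at 70% RWC. The 10% RWC table held the inner 242 bp of it, with 0.13 and 0. The origin of this gap was not tested, and levels at 70% and 10% RWC are not compared for that gene.

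**Figure D3:**
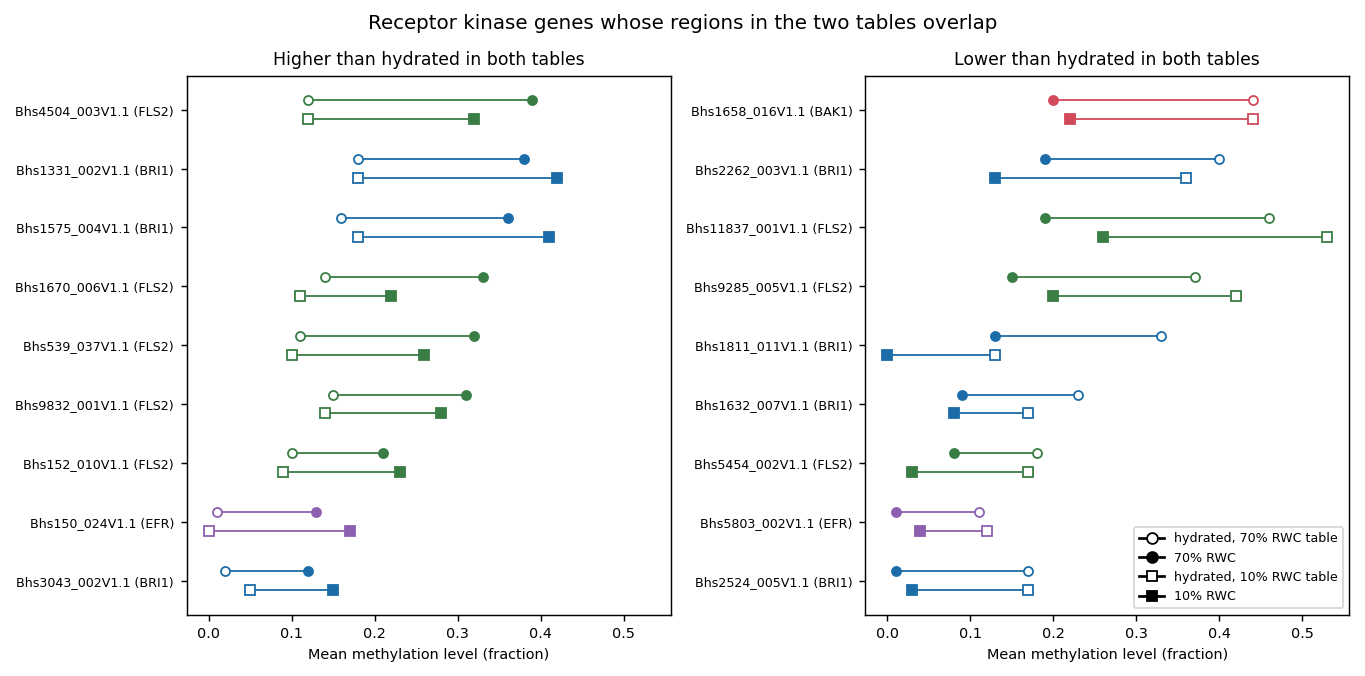
Methylation level (x axis, fraction) at the 18 receptor kinase genes whose regions in the 2 tables overlap (y axis), with circles for the 70% RWC table and squares for the 10% RWC table, open for the hydrated library and filled for the dehydrated one. The left panel holds the 9 genes with higher levels after drying and the right panel the 9 with lower levels, and Bhs1811_011V1.1 stands out for its unequal hydrated levels, 0.33 and 0.13.

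Genes listed for a different stretch in each table could have unlike directions at their 2 sites. Bhs198_034V1.1, described as BRI1, had 0.09 and 0.56 in its body at 70% RWC and 0.30 and 0.03 upstream at 10% RWC. Bhs18_066V1.1 (BRI1) had 0.28 and 0.58 at one end of its body at 70% RWC and, 4149 bp away, 0.30 and 0.15 at 10% RWC. Bhs3088_002V1.1 (BAK1) had 0.15 and 0.39 upstream at 70% RWC and 0.14 and 0.02 in a stretch 130 bp further upstream at 10% RWC. These 3 genes were higher at one site at 70% RWC and lower at another at 10% RWC. The reverse was listed for Bhs334_095V1.1 (0.76 and 0.37 upstream at 70% RWC, 0.12 and 0.28 downstream at 10% RWC), Bhs3283_009V1.1 (0.40 and 0.16 at a region that crosses its upstream edge, 0.11 and 0.25 in the body) and Bhs4508_001V1.1 (0.15 and 0.02, 0.18 and 0.37, both in the body). The level of each site in the other dehydrated library is not in the tables. The remaining 5 genes with different stretches had the same direction at both. Besides Bhs11998_001V1.1, Bhs150_036V1.1 and Bhs150_038V1.1 these were Bhs6559_004V1.1 (0.06 and 0.23, 0.06 and 0.20) and Bhs1791_001V1.1 (0.12 and 0.24, 0.06 and 0.16).

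By part of the gene, bodies held 26 of the 50 regions at 70% RWC (52.0%, against 44.3% of all listed genes) and 34 of the 58 at 10% RWC (58.6%, against 44.2%). In bodies 15 of 26 were higher at 70% RWC (57.7%, against 71.0% of all) and 18 of 34 at 10% RWC (52.9%, against 61.5%). Upstream, 9 of 15 (60.0%, against 71.3%) and 7 of 12 (58.3%, against 50.1%) were higher. Downstream, 6 of 9 (66.7%, against 69.3%) and 6 of 12 (against 52.3%) were. For these counts of higher levels by part, each exact 95% interval contains the share of all listed genes, and the share of regions that lie in bodies was not tested. Flanking regions lay up to 1790 bp from their gene. Of all listed genes, 30.0% at 70% RWC and 30.5% at 10% RWC had a region that was also listed for another gene. Among the receptor kinase genes this held for 17 of 50 and 15 of 58, near those shares. Levels of these shared regions belong to the neighbour as much as to the receptor kinase gene. Among them were the regions of Bhs1140_051V1.1, Bhs334_095V1.1 and Bhs645_007V1.1 at 70% RWC and of Bhs176_027V1.1 and Bhs905_002V1.1 at 10% RWC. The regions of Bhs2524_005V1.1, Bhs9285_005V1.1 and Bhs150_024V1.1 were shared in both tables.

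**Figure D4:**
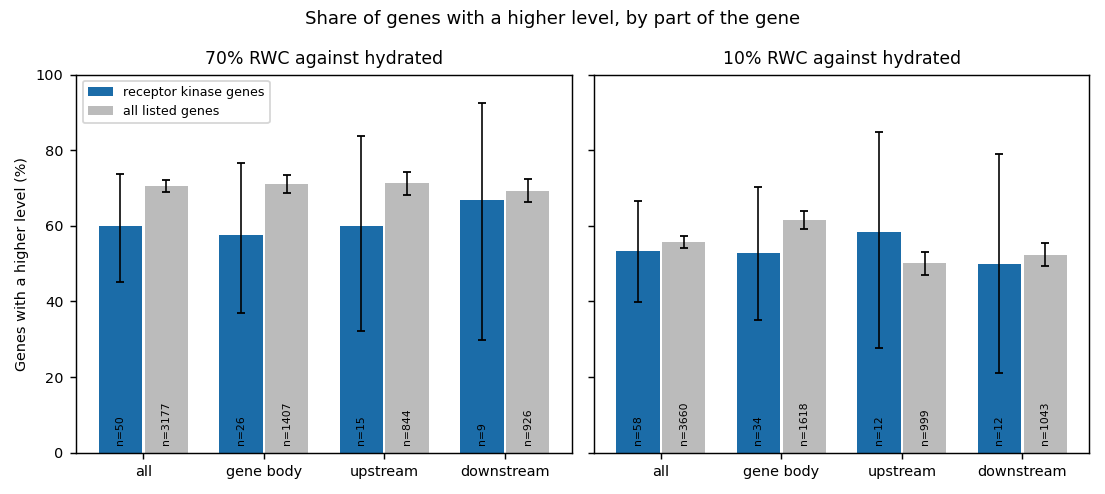
Percent of genes with a higher level in the dehydrated library (y axis) for the receptor kinase genes (blue) and all listed genes (grey), by part of the gene (x axis), with exact 95% binomial intervals as error bars that cover counting only. The highest blue bar stands at 66.7%, and each of their intervals contains the height of the grey bar beside it.

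Few other genes of the brassinosteroid pathway were in the tables. Of brassinosteroid synthesis, a brassinosteroid-6-oxidase gene, Bhs1905_001V1.1, which makes the active hormone, had 0 and 0.13 in its body at 70% RWC and 0.01 and 0.14 at 10% RWC. A steroid 22-alpha-hydroxylase gene, Bhs80_002V1.1, of an early step of the synthesis, had 0.02 and 0.23 upstream at 10% RWC. Of the signalling chain below BRI1, 4 of 8 genes were higher at 70% RWC (70.6% of all listed genes) and 2 of 5 at 10% RWC (55.8%). Upstream of Bhs12329_002V1.1, described as brassinosteroid resistant 1/2, the transcription factors at the end of the chain, the level was 0.60 in the hydrated library and 0.24 at 70% RWC. Both listed cyclin D3 genes, of cell division, were lower at 70% RWC, with 0.62 and 0.27 downstream of Bhs3714_002V1.1 and 0.43 and 0.18 upstream of Bhs384_006V1.1. The largest upward differences at 70% RWC were in the body of Bhs1598_014V1.1, described as a brassinosteroid signalling kinase (0.27 and 0.56), and upstream of Bhs2958_004V1.1, described as brassinosteroid insensitive 2 (0.24 and 0.49). An overlapping body region of Bhs1598_014V1.1 was lower at 10% RWC (0.19 and 0.08). The TCH4 gene Bhs861_007V1.1, an enzyme that remodels cell wall xyloglucan, was higher upstream in both tables (0.01 and 0.14, 0.01 and 0.19).

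Of the immune genes that act beside or after FLS2, 12 of 16 were higher at 70% RWC (against 70.6% of all listed genes) and 19 of 32 at 10% RWC (59.4%, against 55.8%). The chitin receptor CERK1, which senses a fungal wall sugar, was the description of 6 genes at 10% RWC, and 5 of these were lower, 2 of them, Bhs120_060V1.1 and Bhs120_061V1.1, for a shared region (0.20 and 0.04). At 70% RWC 2 of 3 such genes were higher, the same 2 genes at another shared stretch (0.08 and 0.26). The largest difference of a CERK1-described gene at 10% RWC was downstream of Bhs2301_003V1.1, at 0.47 in the hydrated library and 0.10 at 10% RWC. The 4 genes of respiratory burst oxidases, which make the superoxide of the immune response, were all higher at 10% RWC, from 0.02 and 0.12 at Bhs4382_010V1.1 to 0.15 and 0.32 at Bhs3031_003V1.1. At 70% RWC both listed oxidase genes, Bhs419_011V1.1 and Bhs547_035V1.1, were lower and neither was among those 4. Calcium-dependent protein kinase genes were higher at 3 of 3 at 70% RWC and at 5 of 8 at 10% RWC. Somatic embryogenesis receptor kinases 1 and 4, close relatives of BAK1 that the descriptions used here leave out, were higher at 4 of 8 and at 11 of 17 genes; they were counted after their values were seen.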

How the data were processed

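Per the labels' protocols, leaf DNA was sonicated, ligated to methylated adaptors, bisulfite treated with a commercial kit, size selected, amplified by PCR and sequenced, with 1 library per state. Which aligner, region caller, sequence contexts and genome build were used is not stated in the sources used here. Per the file headers, the deposited levels are mean methylation fractions of a region in the hydrated and in 1 dehydrated library, with 2 decimals. Positions are given on the scaffolds as deposited. Blank lines (57411 at 70% RWC and 54694 at 10% RWC) were left out, and each gene's end was computed from its start and length. The deposited descriptions hold, per KEGG match, an expect value, a bit score and a name.

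Members were found by the name of the first match. The members and pathway lists were chosen with earlier results of these data known. The pathway keyword for BIN2 was matched as brassinosteroid insensitive 2, its spelling in the tables, and genes of calmodulin-dependent kinases were not counted as calmodulin. Counts, medians and exact 95% binomial (Clopper-Pearson) intervals, which cover counting error only, were computed with no test, since each state has 1 library. Genes were named by these rules: the 8 largest differences per table and direction, all members in both tables, the BRI1 and BAK1 members, and members within 20 kb of each other. Some that meet them are given by count or in the plot of levels by gene. The counting steps were tested on simulated data. The tools were scipy 1.17.1, numpy 2.4.6, pandas 2.3.3 and matplotlib 3.10.9 under Python 3.11.15. No column of another sample was present.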

Additional observations from a re-analysis of the deposited data

How the results depend on the processing

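The share of receptor kinase genes with a higher level, 60.0% at 70% RWC and 53.4% at 10% RWC, stayed within its own interval under the alternatives tried, but at 10% RWC the majority turned with the size of the difference: 42.3% were higher among differences of at least 0.2 (11 of 26) and 44.4% among those of at least 0.3 (4 of 9). All listed genes turned the same way, with 45.5% and 41.0% higher at these limits. At 70% RWC the same limits gave 64.3% and 57.1%. Counting each region once, keeping regions of at least 300 bp or leaving out EFR descriptions gave 58.3% to 60.0% at 70% RWC and 52.6% to 54.1% at 10% RWC. Requiring a bit score of at least 200, or a region listed for 1 gene, both chosen after seeing the data, gave 67.9% and 63.6% at 70% RWC and 54.8% and 55.8% at 10% RWC. As a log2 ratio the median difference was 1.03 with 0.01 added and 0.91 with 0.05 added at 70% RWC, and 0.98 and 0.83 at 10% RWC. Weighted by length it was 0.12 and 0.10. Genes lie on both sides of 0 with none near it, so a signed median describes them poorly, and its order-statistic interval ran from -0.10 to 0.20 and from -0.13 to 0.14. Other rules for a shared region were not counted, because both tables use the hydrated library. No paired analysis was possible because each state has 1 library. Read depth is unknown, so how precise a single level is cannot be given.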
